A study of Mus musculus with 17 samples.

Results

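Transcripts of the interferon regulatory factors were followed in 17 mouse hearts. The members, chosen by gene name in the count table, were Irf1, Irf2, Irf3, Irf4, Irf5, Irf7, Irf8 and Irf9, which are 8 of 56748 genes, and all 8 passed the filter on low counts that left 16195 genes for testing. Bulk RNA-seq libraries came from whole heart tissue of mice between 12 and 16 months old, 1 library per mouse, with 8 controls (Ctrl) and 9 hMut mice. The hMut mice were Polg iMut/iMut; +/Ckmm-cre, so that the proofreading-deficient mitochondrial DNA polymerase POLG D257A was expressed where the muscle creatine kinase promoter of Ckmm-cre is active, in cardiomyocytes and skeletal muscle fibres. The alleles of the Ctrl mice of this experiment were not spelled out in the sources used here. The comparison asked which members of the family differed between hMut and Ctrl hearts and how many hearts carried a higher level of each.

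Interferon regulatory factors share an N-terminal DNA-binding domain that reads GAAA repeats, as found in the interferon-stimulated response element (ISRE). Irf3 and Irf7 are activated by phosphorylation after nucleic acids, including mitochondrial DNA outside the mitochondrion, are sensed, and they switch on type I interferon genes. Irf9 joins Stat2 in the complex that carries the type I interferon signal to the nucleus, Irf1 mediates much of the response to interferon-gamma, and Irf2 competes with Irf1 for its sites, while Irf4, Irf5 and Irf8 act mainly in lymphoid and myeloid cells. The genes are spread over the genome (GRCm39), with Irf7 at chr7:140842619-140846394 on the minus strand, Irf3 at chr7:44647072-44652272 on the plus strand, Irf2 and Irf8 on chromosome 8, and Irf1, Irf4, Irf5 and Irf9 on chromosomes 11, 13, 6 and 14. Phosphorylation and movement into the nucleus are not measured by transcript counts.

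Total counts ranged from 32915159 to 46486964 per heart. The share of counts on mitochondrial DNA-encoded genes was lower in hMut hearts (15.9% to 23.0%) than in Ctrl hearts (23.5% to 30.9%), without overlap, so levels are given as CPM, that is counts scaled to equal library size, after edgeR's trimmed mean (TMM) correction. Polg, the targeted gene, was at 47.0 to 65.1 CPM in hMut hearts and at 27.1 to 47.2 CPM in Ctrl hearts, with 8 of 9 hMut hearts above every Ctrl heart, although counts per gene cannot tell the alleles apart. The labelled tissue was matched by 8 cardiomyocyte genes (Tnnt2, Myh6 and others), which summed to between 31511 and 50725 CPM. In 2 libraries, hMut replicates 6 and 9, immune transcripts stood apart from the rest, and the group difference of each factor is also given without one or both of them. In bulk tissue, more cells of a type and more RNA per cell cannot be told apart.

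The promoters of 4 members are shown because the family is itself under interferon control. The 4 windows differed in their matches to response elements, and that of Irf7 held none. All 4 transcripts were among the 7 of 8 that were highest in hMut replicate 6. Each window is 300 bases long and ends 25 bases into the first exon, on the coding strand of GRCm39, with starts from GENCODE. Capitals mark matches to the ISRE core, which is GAAA, any 2 bases (NN) and GAAA again, searched on both strands, and to the gamma-activated site (GAS) of interferon-gamma signalling, TTCNNNGAA, which reads the same on both strands. The windows are chr11:53660566-53660865 (plus strand), chr8:47192485-47192784 (plus strand), chr8:121462822-121463121 (plus strand) and chr7:140846374-140846673 (minus strand).
Irf1: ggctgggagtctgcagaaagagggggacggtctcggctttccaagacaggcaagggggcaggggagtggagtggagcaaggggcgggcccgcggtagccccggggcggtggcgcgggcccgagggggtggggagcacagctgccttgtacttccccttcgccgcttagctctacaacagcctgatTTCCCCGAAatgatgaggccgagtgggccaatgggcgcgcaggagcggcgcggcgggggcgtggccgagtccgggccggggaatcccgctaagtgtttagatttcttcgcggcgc
Irf2: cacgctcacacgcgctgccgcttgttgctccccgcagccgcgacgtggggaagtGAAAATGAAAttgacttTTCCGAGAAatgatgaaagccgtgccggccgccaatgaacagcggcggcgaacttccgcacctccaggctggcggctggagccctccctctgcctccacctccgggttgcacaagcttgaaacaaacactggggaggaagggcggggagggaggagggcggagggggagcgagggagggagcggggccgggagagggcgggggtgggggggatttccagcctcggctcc
Irf8: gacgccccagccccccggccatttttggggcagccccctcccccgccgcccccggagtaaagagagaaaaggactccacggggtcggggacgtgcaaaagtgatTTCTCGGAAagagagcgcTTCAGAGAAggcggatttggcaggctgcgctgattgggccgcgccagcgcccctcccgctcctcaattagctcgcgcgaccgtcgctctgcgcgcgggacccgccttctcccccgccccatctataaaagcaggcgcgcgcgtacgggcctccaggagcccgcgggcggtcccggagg
Irf7: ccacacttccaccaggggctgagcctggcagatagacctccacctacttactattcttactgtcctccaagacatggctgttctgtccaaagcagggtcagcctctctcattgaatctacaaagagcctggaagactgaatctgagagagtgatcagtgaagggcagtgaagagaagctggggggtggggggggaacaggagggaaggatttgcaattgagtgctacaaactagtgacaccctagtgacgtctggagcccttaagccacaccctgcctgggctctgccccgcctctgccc

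The Irf1 window held 1 GAS match, TTCCCCGAA (positions -90 to -82, counted back from the transcript start). The Irf2 window held 1 ISRE match, GAAAATGAAA (positions -221 to -212), and 1 GAS match, TTCCGAGAA (positions -204 to -196), and these do not overlap. The Irf8 window held 2 GAS matches, TTCTCGGAA (positions -171 to -163) and TTCAGAGAA (positions -153 to -145). Neither motif occurred in the windows of Irf3, Irf4, Irf5, Irf7 and Irf9. Among 21769 promoters of protein-coding genes of the same length, 3.95% held the ISRE core and 8.999% held the GAS. A match of letters describes the window and is not a measured binding site.

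Across all 17 hearts no factor passed an adjusted p of 0.05 in edgeR's quasi-likelihood test of hMut against Ctrl. The count was 0 of 8 by edgeR, beside 4.62% of the 16195 genes tested, and it was also 0 of 8 by DESeq2 and by limma-voom. At an unadjusted p under 0.05, edgeR called 2 of the 8 (Irf5 and Irf7), beside 25.8% of all genes. The hearts were far from alike, however. In hMut replicate 6, 7 of the 8 factors (Irf1, Irf2, Irf4, Irf5, Irf7, Irf8 and Irf9) were above every Ctrl heart, beside 31.1% of all genes tested. In hMut replicate 9, 4 factors (Irf5, Irf7, Irf8 and Irf9) were above every Ctrl heart, beside 27.9% of all genes. Replicate 4 had 2 such factors (Irf7 and Irf9, beside 14.7%), replicate 7 had 1 (Irf7, beside 17.7%) and the other 5 hMut hearts (1, 2, 3, 5 and 8) had 0, beside 11.0%, 10.9%, 13.7%, 16.0% and 15.6%. Below every Ctrl heart lay Irf1 in replicate 1, beside 10.7% of all genes, and Irf1, Irf3 and Irf9 in replicate 2, beside 10.4%.

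**Figure D1:**
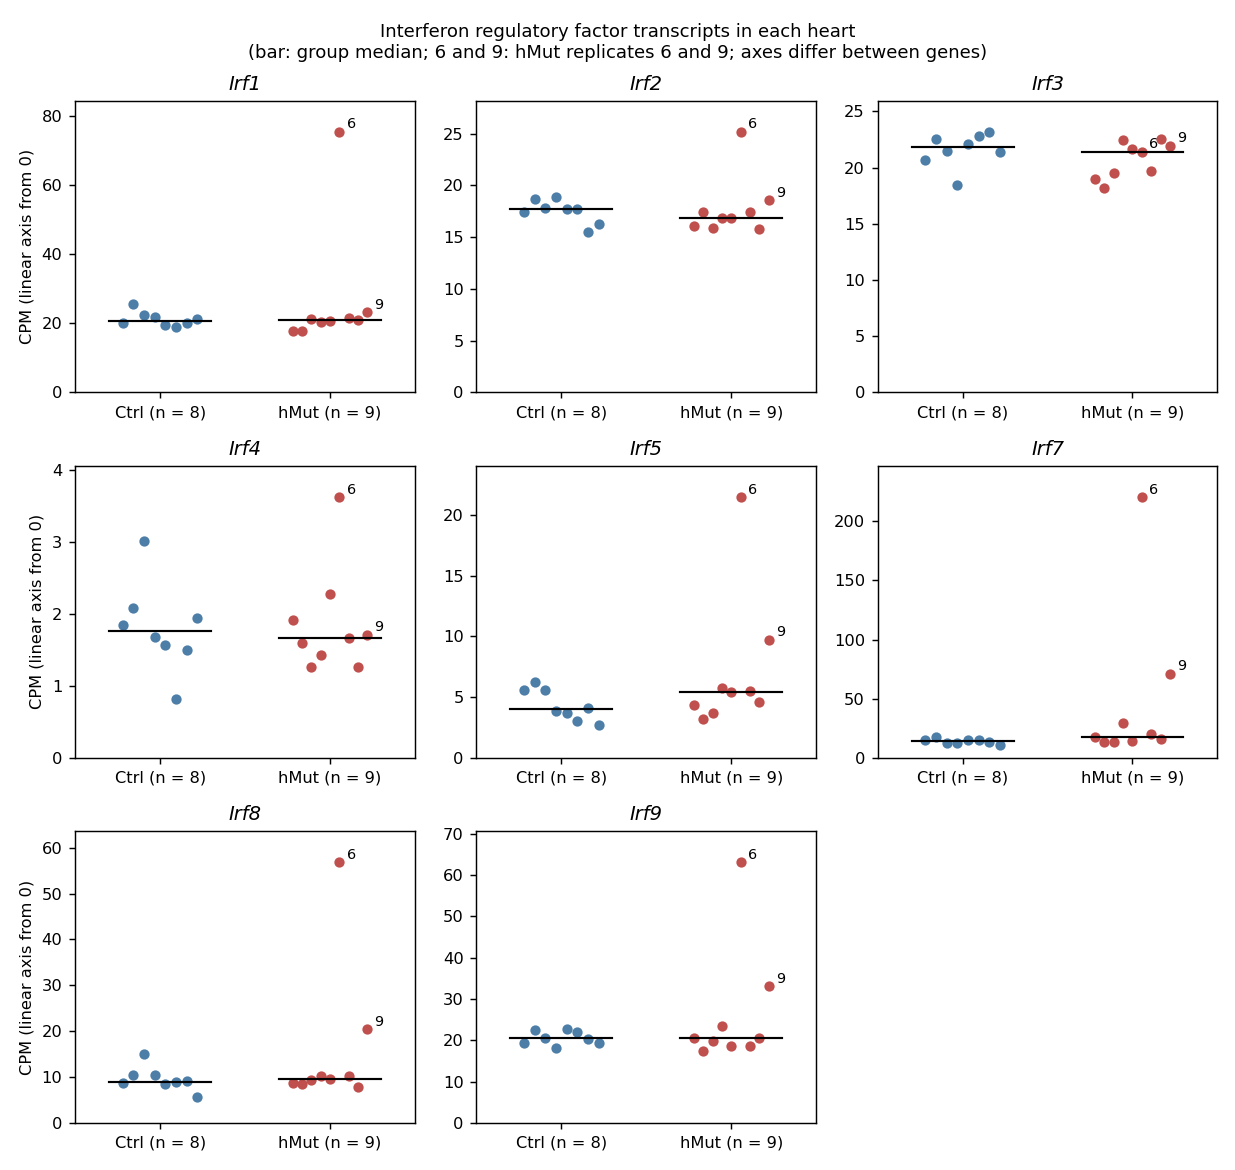
CPM of each interferon regulatory factor in each heart, on linear axes from 0 that differ between genes, with bars for group medians and the numbers 6 and 9 beside those hMut replicates. For 7 of the 8 factors hMut replicate 6 is the highest point, as for Irf7 at 220 CPM against at most 17.6 CPM in Ctrl hearts.

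The pair of factors that answer to nucleic acid sensors behaved differently from each other. Irf7, the interferon-inducible factor that amplifies type I interferon production, was at 10.9 CPM in the lowest Ctrl heart, 14.1 CPM at the Ctrl median and 17.6 CPM in the highest, and at 13.1, 17.4 and 220 CPM for the lowest, median and highest hMut heart. The hMut hearts 4, 6, 7 and 9 lay above every Ctrl heart at 29.6, 220, 20.4 and 70.8 CPM, and the other 5 lay within the Ctrl range. At least 4 hMut hearts above every Ctrl heart was found for 15.8% of all genes. The count of 4 rested in part on Ctrl replicate 2, without which 6 hMut hearts lay above every Ctrl heart. Relative to the Ctrl mean, the Irf7 level was 15.7 times in replicate 6, 5.06 times in replicate 9, 2.12 times in replicate 4 and 1.46 times in replicate 7. The log2 fold change of hMut over Ctrl, as all differences given for a factor here, was 1.72 ± 0.55 (SE, adjusted p = 0.0727 by edgeR). It was 0.80 ± 0.30 (SE, adjusted p = 0.134) without hMut replicate 6, and 0.34 ± 0.15 (SE, adjusted p = 0.249) without replicates 6 and 9. Leaving out hMut replicate 2, 1 of the hearts within the Ctrl range, gave 1.85 (adjusted p = 0.0372). The call also turned on the treatment of extreme counts. DESeq2, which replaces counts it marks as outliers, gave 0.73 (adjusted p = 0.117), and without that replacement it gave 1.71 (adjusted p = 0.0275).

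Irf3, which is made constitutively and is switched on by the kinase Tbk1, showed no such spread. Its level was 18.5, 21.8 and 23.2 CPM in the lowest, median and highest Ctrl heart and 18.2, 21.4 and 22.5 CPM in hMut hearts. The groups overlapped and no hMut heart was above every Ctrl heart, which was so for 41.2% of all genes. Replicates 6 and 9 lay at 21.4 and 21.9 CPM, within the Ctrl range. The estimate was -0.06 ± 0.06 (SE, adjusted p = 0.501 by edgeR), and -0.08 ± 0.06 (SE, adjusted p = 0.505) without that pair. Irf3 shares 1065 bases with Bcl2l12 on the opposite strand (177 counts per heart on average), and the strand setting of the counting was not stated.

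Because Irf7 and Irf3 come from the same library, their ratio is free of the scaling between libraries. The log2 ratio of Irf7 to Irf3 counts ran from -0.97 to -0.36 in Ctrl hearts with a median of -0.58, and from -0.60 to 3.36 in hMut hearts with a median of -0.13. In 5 of 9 hMut hearts it exceeded every Ctrl heart. The mean was -0.64 ± 0.20 (SD, n = 8) in Ctrl and 0.36 ± 1.34 (SD, n = 9) in hMut hearts, a difference of 0.99 (two-sided exact permutation test over 24310 splits, p = 0.0175, adjusted over 2 ratios p = 0.0350). Adjusted over the 2 ratios, the call was lost when any 1 of the 8 Ctrl hearts was left out (exact permutation, adjusted p from 0.0601 without Ctrl replicate 2 to 0.108 without Ctrl replicate 8), with differences of 0.95 to 1.03. It was also lost without hMut replicates 6 and 9 together, where the difference was 0.37 (exact permutation, adjusted p = 0.0547), and in pairs by replicate number (0.83, exact permutation, adjusted p = 0.0625). The ratio was chosen with the Irf7 values known.

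**Figure D2:**
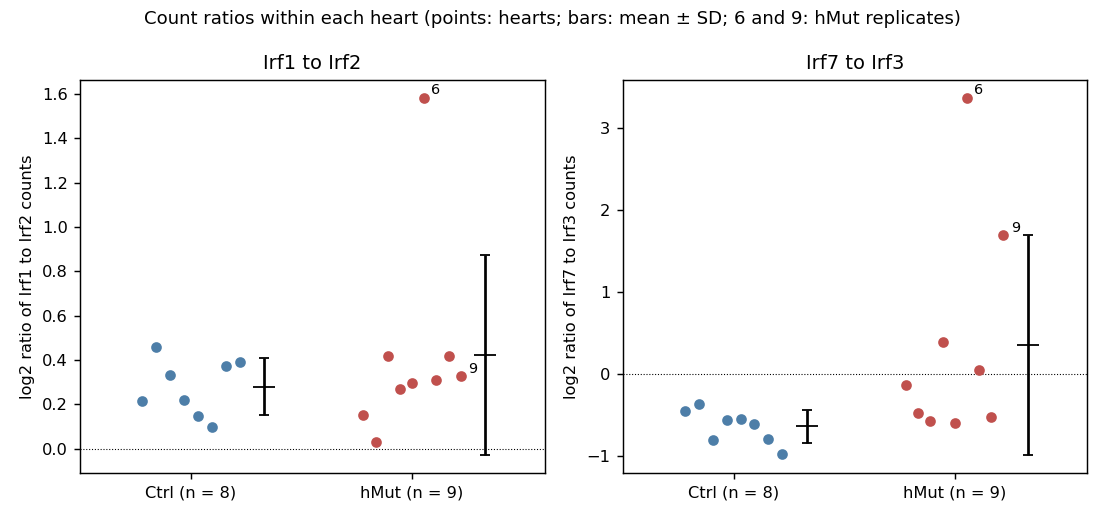
Log2 ratios of Irf1 to Irf2 and of Irf7 to Irf3 counts in each heart, with mean ± SD per group and hMut replicates 6 and 9 numbered. The Irf7 to Irf3 ratio exceeds every Ctrl heart in 5 hMut hearts, and the Irf1 to Irf2 ratio only in replicate 6.

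Irf9, the DNA-binding subunit of the type I interferon complex, was at 18.02, 20.5 and 22.7 CPM in the lowest, median and highest Ctrl heart and at 17.4, 20.5 and 63.1 CPM in hMut hearts. The group medians were 20.5 CPM in both, and 3 hMut hearts lay above every Ctrl heart, namely replicate 6 at 63.1 CPM, replicate 9 at 33.1 CPM and replicate 4 at 23.6 CPM, while replicate 2 lay below all of them. At least 3 hearts above was found for 23.6% of all genes. The difference between groups was 0.34 ± 0.22 (SE, adjusted p = 0.316 by edgeR), and it was -0.05 ± 0.07 (SE, adjusted p = 0.701) without replicates 6 and 9. Irf9 shares 123 bases with Rnf31 on the same strand.

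Irf1, the activator induced by interferon-gamma, was at 18.9, 20.8 and 25.7 CPM in the lowest, median and highest Ctrl heart and at 17.8, 21.0 and 75.4 CPM in hMut hearts. Only replicate 6 was above every Ctrl heart, at 3.54 times the Ctrl mean, and at least 1 such heart was found for 58.8% of all genes. Replicate 9 lay within the Ctrl range at 23.3 CPM. Replicates 1 and 2, at 17.9 and 17.8 CPM, were below every Ctrl heart. Irf1 shares 3144 bases with Gm17334 on the opposite strand (23.9 counts per heart on average). The hMut to Ctrl difference of Irf1 was 0.32 ± 0.25 (SE, adjusted p = 0.409 by edgeR) and turned to -0.06 ± 0.07 (SE, adjusted p = 0.661) without replicate 6. Irf2, which competes for the same sites, was at 15.5, 17.7 and 18.9 CPM in the lowest, median and highest Ctrl heart and at 15.7, 16.8 and 25.2 CPM in hMut hearts. Replicate 6 alone was above every Ctrl heart, at 1.44 times the Ctrl mean. Irf2 differed by 0.02 ± 0.08 (SE, adjusted p = 0.883 by edgeR) and turned to -0.05 (adjusted p = 0.543) without replicate 6.

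The log2 ratio of Irf1 to Irf2 counts lay between 0.10 and 0.46 in Ctrl hearts (median 0.28) and between 0.03 and 0.42 in the 7 hMut hearts other than replicates 6 and 9. Replicate 9 was at 0.33, within the Ctrl range, and replicate 6 was at 1.58. The group difference was 0.14 (two-sided exact permutation test, p = 0.562, adjusted over 2 ratios p = 0.562). Without replicate 6 it was -0.00095 (exact permutation p = 0.990).

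The factors of myeloid cells followed. Irf5, which acts below Toll-like receptors and Myd88, was at 2.72, 3.98 and 6.27 CPM in the lowest, median and highest Ctrl heart and at 3.19, 5.45 and 21.5 CPM in hMut hearts. Replicates 6 and 9 were above every Ctrl heart, at 21.5 and 9.74 CPM, the other 7 hMut hearts lay within the Ctrl range, and at least 2 hearts above was found for 37.0% of all genes. Without Ctrl replicate 2 the number above was 3. Over all 17 hearts the estimate was 0.71 ± 0.33 (SE, adjusted p = 0.191 by edgeR) and 0.10 ± 0.18 (SE, adjusted p = 0.816) without that pair. Irf5 shares 1045 bases with Tnpo3, a gene of the opposite strand that held 2661 counts per heart on average, so its counts are uncertain. Irf8, which directs monocyte and dendritic cell development together with Spi1, was at 5.62, 8.93 and 14.998 CPM in the lowest, median and highest Ctrl heart and at 7.87, 9.60 and 56.8 CPM in hMut hearts. Again replicates 6 (56.8 CPM) and 9 (20.4 CPM) alone exceeded every Ctrl heart. Irf8 differed by 0.73 ± 0.37 (SE, adjusted p = 0.221 by edgeR) and turned to -0.04 ± 0.14 (SE, adjusted p = 0.904) without the pair. With its replacement of outlying counts DESeq2 gave 0.14 for Irf8 (adjusted p = 0.669).

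Irf4, a factor of activated lymphocytes and plasma cells, was low, with 29 to 153 counts per heart. It was at 0.823, 1.76 and 3.01 CPM in the lowest, median and highest Ctrl heart and at 1.26, 1.66 and 3.62 CPM in hMut hearts. Only replicate 6 exceeded every Ctrl heart, at 1.203 times the highest of them. The estimate for all hearts was 0.04 ± 0.23 (SE, adjusted p = 0.922 by edgeR) and turned to -0.14 (adjusted p = 0.719) without replicate 6. Ctrl replicate 3, which had the highest Irf4 and Irf8 levels among the controls, also had the highest sum of B and plasma cell markers in the series. Among the controls it was also highest in dendritic cell markers (36.9 CPM), T and NK cell markers (14.8 CPM) and the leukocyte gene Ptprc (27.9 CPM). In macrophage and monocyte markers Ctrl replicate 1 was highest.

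**Figure D3:**
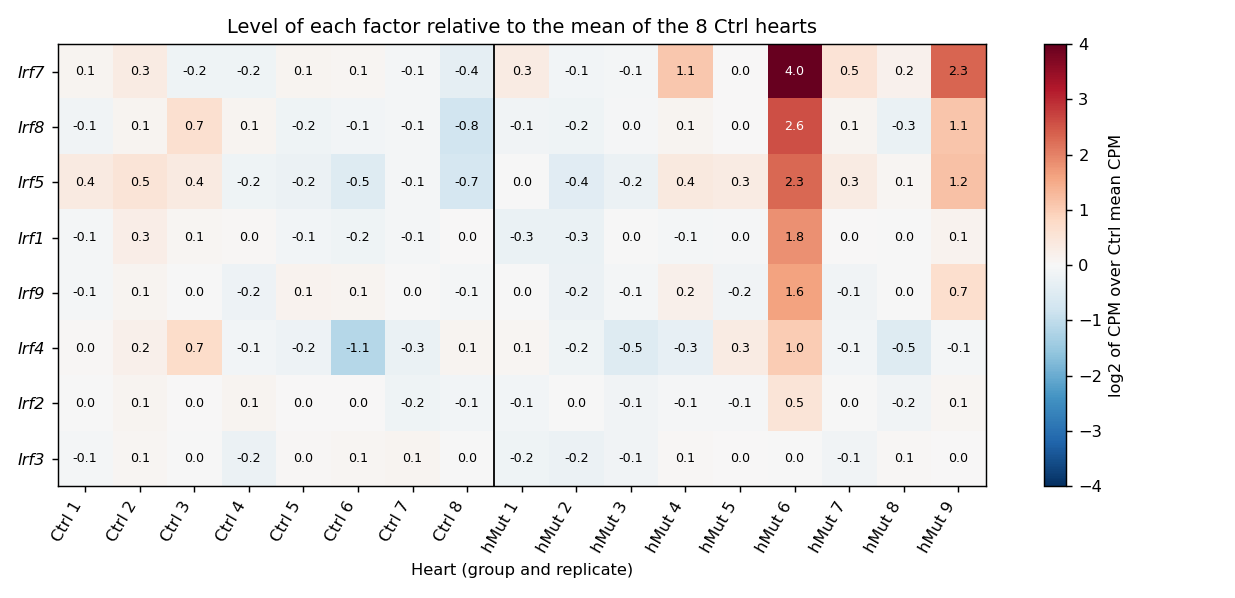
Log2 of the CPM of each factor over its mean in the 8 Ctrl hearts, with hearts in columns and factors ordered by their value in hMut replicate 6. Replicate 6 is high in 7 rows and replicate 9 in 4, while Irf3 is high in neither.

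**Figure D4:**
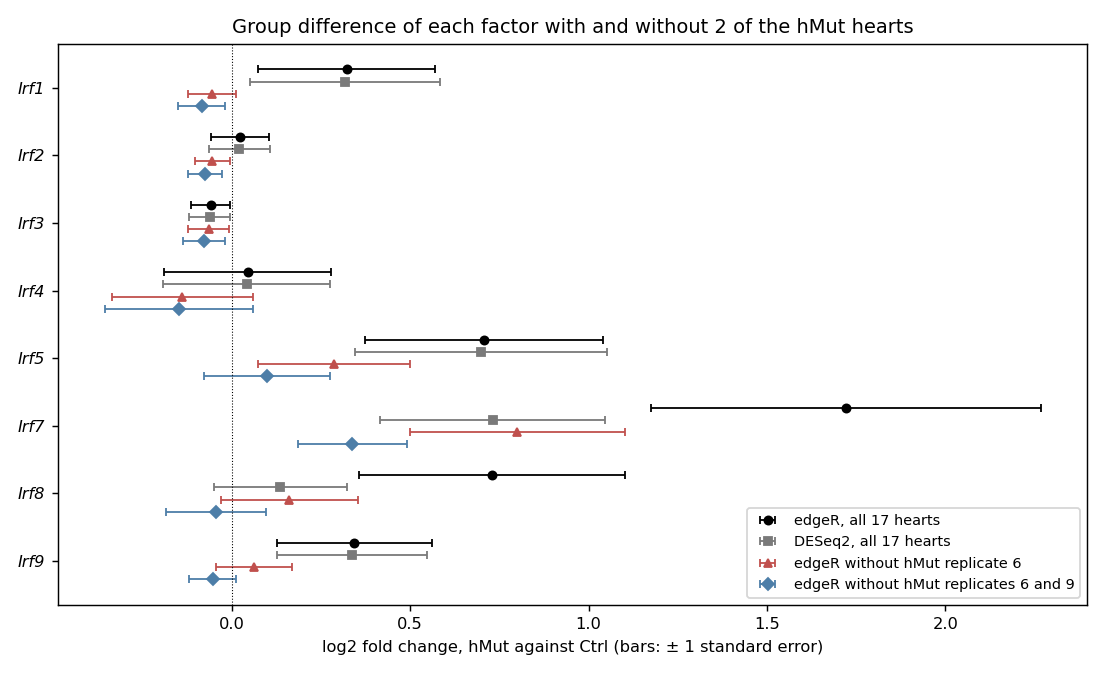
Log2 fold change of each factor between hMut and Ctrl hearts with 1 standard error, by edgeR and DESeq2 over all 17 hearts and by edgeR without hMut replicate 6 or without replicates 6 and 9. Irf7 moves from 1.72 to 0.80 and 0.34, and Irf1, Irf2, Irf4, Irf8 and Irf9 end below 0 when both hearts are left out.

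The size of the change in replicate 6 was graded over the family. Levels at or above 3 times the Ctrl mean were found for 5 of the 8 factors, Irf7 (15.7 times), Irf8 (5.95 times), Irf5 (4.94 times), Irf1 (3.54 times) and Irf9 (3.06 times), beside 4.69% of all genes. In replicate 9 the order among these differed, with Irf7 at 5.06, Irf5 at 2.24, Irf8 at 2.14, Irf9 at 1.604 and Irf1 at 1.09 times the Ctrl mean. Both hearts were above every Ctrl heart for 4 factors, beside 20.5% of all genes.

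Levels were compared between members as CPM per kilobase of the summed exon length given in the count table. In Ctrl hearts Irf3 was the most abundant at 6.27 ± 0.438 CPM per kilobase (SD, n = 8), followed by Irf1 at 5.36 ± 0.537, Irf9 at 3.83 ± 0.308, Irf7 at 3.71 ± 0.560, Irf2 at 2.37 ± 0.151, Irf5 at 1.498 ± 0.449, Irf8 at 1.35 ± 0.376 and Irf4 at 0.369 ± 0.127. The Ctrl ranges of Irf3 and Irf1, of Irf9 and Irf7, of Irf2 and Irf5, and of Irf5 and Irf8 overlapped although in single hearts Irf2 was above Irf5 in 8 of 8, Irf3 above Irf1 in 7, Irf9 above Irf7 in 6 and Irf5 above Irf8 in 5. Using the length of the canonical transcript instead exchanged Irf7 and Irf2. In hMut replicate 6 the order changed, with Irf7 first at 58.4 CPM per kilobase and Irf3 in position 6, and Irf7 was also first in replicate 9 at 18.7 CPM per kilobase.

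The cell type markers were read beside these values. Macrophage and monocyte markers (13 genes) summed to 280 to 421 CPM in Ctrl hearts and to 354 to 465.7 CPM in 7 hMut hearts, but to 1436 CPM in replicate 6, where 13 of 13 genes were above every Ctrl heart, and to 747 CPM in replicate 9, where 12 of 13 were. Csf1r, the receptor that defines macrophages, was at 97.4 and 75.7 CPM in those hearts against 34.2 to 46.1 CPM in Ctrl. Ptprc, carried by all leukocytes, was at 82.1 and 32.6 CPM against 8.66 to 27.9 CPM. T and NK cell markers (11 genes) summed to 102 CPM in replicate 6, with Cd3e at 8.60 CPM, against 3.09 to 14.8 CPM in Ctrl hearts, and 9 of 11 were above every Ctrl heart, but in replicate 9 the sum was 10.4 CPM and 1 of 11 was above. The replicate 9 sum was above those of the 7 other hMut hearts (at most 6.17 CPM) and of every Ctrl heart except Ctrl replicate 3 at 14.8 CPM, the next Ctrl heart being at 6.72 CPM. Dendritic cell markers (8 genes) summed to 78.3 CPM in replicate 6 and 41.0 CPM in replicate 9 against 23.8 to 36.9 CPM in Ctrl. In each of the 2 hearts 5 of 8 were above every Ctrl heart, and Flt3 was at 4.29 and 1.62 CPM against 0.272 to 0.824 CPM. Zbtb46 (20.4 and 26.1 CPM against 16.1 to 26.7 CPM), Cd209a and Siglech lay within the Ctrl range in both. Over all genes, 31.1% and 27.9% were above every Ctrl heart in replicates 6 and 9. B and plasma cell markers (9 genes) summed to 194 CPM in Ctrl replicate 3 and to 51.1 CPM in hMut replicate 6, within the Ctrl range of 7.84 to 194 CPM, and Cd79a was at 1.49 CPM in replicate 6. No marker was at 0 in every heart. Fibroblast markers (6 genes) summed to 1185 and 995 CPM in hMut replicates 6 and 9 against 702 to 788 CPM in Ctrl hearts, and endothelial markers (7 genes) to 808 and 992 CPM against 741 to 905 CPM. The other 7 hMut hearts were at 696 to 838 CPM for fibroblast and 804 to 1080 CPM for endothelial markers. The hMut medians, 809 and 915 CPM, were above every Ctrl heart. The cardiomyocyte sum was lowest in hMut replicates 6 and 9, at 34780 CPM in replicate 6 and 31511 CPM in replicate 9, against 41493 to 50725 CPM in Ctrl. It was not low in these hearts alone, with a median of 41662 CPM in hMut and 49406 CPM in Ctrl hearts. Below every Ctrl heart lay 6 and 7 of the 8 genes in replicates 6 and 9, beside 28.8% and 26.6% of all genes. In hMut replicates 1, 3, 4, 5, 7 and 8 it was 3 to 6 genes, beside 10.7% to 17.3%, and in replicate 2 it was 0. The part of these cell types in the levels of the factors was not tested.

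The genes around the factors were read from lists written from general knowledge. Over all genes, edgeR called 4.62%, and 25.8% had an unadjusted p under 0.05. Of 18 genes that activate the factors, among them Sting1, Mavs, Tbk1 and the Toll-like receptors, 0 were called by edgeR in either direction (3 at an unadjusted p under 0.05, all higher), and the median log2 fold change was 0.27, beside 0.00 over all genes. DESeq2 and limma-voom each called 1. The genes with the smallest p were the adaptor Myd88 (log2 fold change 0.33, adjusted p = 0.0786 by edgeR, 5 of 9 hMut hearts above every Ctrl heart, with 5 or more in 10.6% of all genes), the adaptor Traf3 (0.20, adjusted p = 0.1002, 3 hearts) and the kinase Irak4 (0.34, adjusted p = 0.143, 3 hearts). At least 3 hearts above was found for 23.6% of all genes. In replicates 6 and 9, 16 and 13 of the 18 were above every Ctrl heart, beside 31.1% and 27.9% of all genes.

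Of 10 DNA-binding partners and coactivators, 0 were called by edgeR (1 at an unadjusted p under 0.05), by DESeq2 or by limma-voom, with a median log2 fold change of 0.42. Spi1, the partner of Irf4 and Irf8, differed by 0.81 ± 0.31 (SE, adjusted p = 0.122 by edgeR) and was at 24.7 CPM in replicate 6 and 10.6 CPM in replicate 9 against 3.58 to 5.68 CPM in Ctrl hearts. Spib, a lymphoid relative of Spi1, differed by -1.14 ± 0.65 (SE, adjusted p = 0.269) with Ctrl hearts from 0.0851 to 6.31 CPM. Its hMut hearts ran from 0.219 to 0.907 CPM. The median was higher in hMut (0.625 CPM) than in Ctrl hearts (0.371 CPM), against the sign of the estimate.

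Of 12 genes that restrain the factors or their output, 1 was called higher and 0 lower, beside 3.48% and 1.14% of all genes, and the median log2 fold change was 0.03. The gene was Eif4ebp1, a repressor of cap-dependent translation that is known to limit Irf7 protein synthesis. It rose from 40.4, 47.7 and 51.6 CPM (lowest, median and highest Ctrl heart) to 40.6, 63.3 and 81.1 CPM in hMut hearts, with 7 of 9 above every Ctrl heart (at least 7 for 3.80% of all genes; log2 fold change 0.44 ± 0.11 SE, adjusted p = 0.0309 by edgeR). Its call was lost with sex as a covariate, without hMut replicates 6 and 9 together, and when any of Ctrl replicates 1, 2 and 3 or hMut replicates 5, 7 and 9 was left out. Usp18 and Socs1, feedback inhibitors of interferon signalling, had log2 fold changes of 0.96 (adjusted p = 0.169) and 1.10 (adjusted p = 0.149) and were highest in replicate 6 at 33.9 and 5.40 CPM.

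Of 11 interferon and receptor genes, 6 had enough counts to be tested, and Ifnb1, Ifna2, Ifna4, Ifnk and Ifng did not. Ifng nevertheless reached 54 counts (1.28 CPM) in hMut replicate 6, against at most 0.0632 CPM in Ctrl hearts. It was at 0.0225 CPM in replicate 9 and at most 0.0271 CPM in the other hMut hearts. Of the 6, 0 were called by edgeR (3 at an unadjusted p under 0.05), and DESeq2 and limma-voom each called 1. Ifngr1, a chain of the interferon-gamma receptor, had a log2 fold change of 0.18 (adjusted p = 0.104 by edgeR). In 4 of 9 hMut hearts it was above every Ctrl heart, with at least 4 in 15.8% of all genes. The lambda receptor chain Ifnlr1 had -0.22 (adjusted p = 0.121 by edgeR), with 3.65 to 5.11 CPM in hMut and 4.68 to 6.65 CPM in Ctrl hearts. Il10rb had -0.20 (adjusted p = 0.0739 by edgeR), with 56.9 to 79.9 CPM in hMut and 69.0 to 87.6 CPM in Ctrl hearts.

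The targets separated the hearts. Of 30 type I interferon targets such as Ifit1 and Oas3, 0 were called by edgeR over all hearts (13 at an unadjusted p under 0.05, all higher), 1 by DESeq2 and 0 by limma-voom, with a median log2 fold change of 0.60. By heart, 30 of 30 were above every Ctrl heart in replicate 6, 29 of 30 in replicate 9, 14 of 30 in replicate 4, 5 in replicate 7, 4 in replicate 1, 1 in replicate 5 and 0 in replicates 2, 3 and 8. The counts in replicates 7 and 1 stand beside 17.7% and 11.0% of all genes, near their shares of the list. Those in replicates 4, 9 and 6 stand beside 14.7%, 27.9% and 31.1%. Below every Ctrl heart lay 9 of 30 in replicate 2, 6 in replicate 8, 4 in replicate 5, 2 each in replicates 3 and 7 and 1 in replicate 1. In that order of hearts, 10.4%, 14.4%, 15.1%, 13.9%, 17.3% and 10.7% of all genes lay below. Of 24 genes tested from a list of targets usually assigned to interferon-gamma and Irf1 (immunoproteasome, antigen transport, guanylate-binding proteins, Cxcl9 and Cxcl10), 0 were called by edgeR, DESeq2 or limma-voom (8 at an unadjusted p under 0.05 by edgeR, all higher), with a median log2 fold change of 0.73. By heart, 24 of 24 were above every Ctrl heart in replicate 6, 9 in replicate 9, 3 in replicate 4 and 1 in replicate 3. These counts stand beside 31.1%, 27.9%, 14.7% and 13.7% of all genes. Below every Ctrl heart lay 8 of 24 in replicate 8, 4 in replicate 5, 3 in replicate 3, 2 in replicate 2 and 1 in replicate 1. In that order of hearts, 14.4%, 15.1%, 13.9%, 10.4% and 10.7% of all genes lay below. The median gene of the type I list was 2.29 above its Ctrl mean on the log2 scale in replicate 6 and 1.09 above it in replicate 9, and the median gene of the Irf1-type list was 2.78 and 0.39 above. Replicate 9, where Irf1 at 23.3 CPM was below only Ctrl replicate 2 (25.7 CPM), had nearly the whole type I list above the controls. Of the Irf1-type list it had 9 of 24 above them, beside 27.9% of all genes. Such counts rest on the highest Ctrl heart of each gene. For Igtp, at 25.2 CPM in replicate 9, that heart was at 94.3 CPM against a Ctrl median of 16.9 CPM. The list counts without single Ctrl hearts were not tested. These counts describe single hearts, and the difference between the lists was not tested.

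Single targets showed the same grading. Ifit1 was at 125 CPM in replicate 6 and 17.3 CPM in replicate 9 against at most 10.03 CPM in Ctrl hearts (log2 fold change 1.59 ± 0.62 SE, adjusted p = 0.128 by edgeR). Oas3 was at 12.0 and 3.07 CPM against at most 1.44 CPM (1.82 ± 0.62 SE, adjusted p = 0.0882), and Lgals3bp at 201 and 96.6 CPM against at most 47.7 CPM (0.75 ± 0.28 SE, adjusted p = 0.116). Among the Irf1-type targets, the chemokine Cxcl9 was at 112 CPM in replicate 6 but 8.90 CPM in replicate 9, against at most 8.60 CPM in Ctrl (1.62 ± 0.65 SE, adjusted p = 0.136). Cxcl10 was at 22.01 and 2.68 CPM against at most 2.18 CPM (2.03 ± 0.79 SE, adjusted p = 0.126), and the immunoproteasome subunit Psmb10 at 159 and 52.1 CPM against at most 44.5 CPM (0.64 ± 0.26 SE, adjusted p = 0.136).

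Without hMut replicates 6 and 9, edgeR called 0 genes of these 6 lists, beside 431 of the 16159 genes tested then. The median log2 fold change was then -0.03 for the type I targets (3 of 30 at an unadjusted p under 0.05) and -0.09 for the Irf1-type targets (4 of 24). It was 0.02 for the activators (2 of 18), -0.12 for the partners (0 of 10) and -0.0050 for the restraining genes (1 of 12). For interferons and receptors it was 0.0069 (3 of 6), beside -0.0058 over all genes (3010 of 16159). Ifit1 was then at -0.02 (adjusted p = 0.966 by edgeR), Oas3 at 0.48 (adjusted p = 0.465), Cxcl9 at -0.02 (adjusted p = 0.973), Spi1 at 0.23 (adjusted p = 0.378) and Eif4ebp1 at 0.34 (adjusted p = 0.0786).

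**Figure D5:**
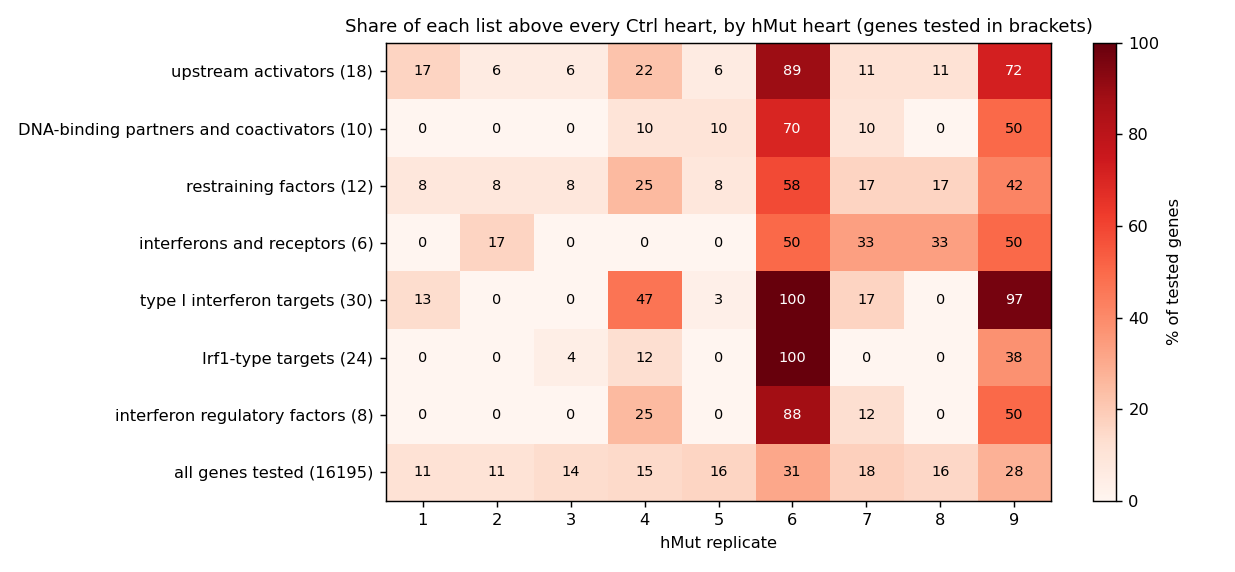
Share of the tested genes of each list that were above every Ctrl heart, by hMut replicate, with the same share over the factors and over all 16195 genes tested. Replicate 6 is at 100% for both target lists, whereas replicate 9 has 29 of 30 type I targets but 9 of 24 Irf1-type targets, beside 27.9% of all genes.

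The genes whose log2 CPM was most like that of each factor over the 17 hearts are given by Pearson's r, with r over the 15 hearts without hMut replicates 6 and 9 beside it. The points share the libraries, and with both hearts present much of r rests on them. Irf7 was most like Lgals3bp (r = 0.98, Spearman's rho 0.84, r = 0.81 without the pair), Tpd52 (0.97, rho 0.73, 0.74 without) and Bst2 (0.97, rho 0.64, 0.74 without). Irf9 was most like Oasl2 (0.98, rho 0.85, 0.76 without), Xaf1 (0.98, rho 0.77, 0.69 without) and Stat2 (0.98, rho 0.72, 0.74 without), and Irf1 most like Tgtp2 (0.97, rho 0.67, 0.49 without), Samhd1 (0.97, rho 0.54, 0.56 without) and Psmb9 (0.97, rho 0.64, 0.67 without). For Irf5 the list was led by Spi1 (0.98, rho 0.91, 0.91 without), with Glipr1 (0.97, rho 0.93, 0.89 without) also among the 3 most alike. For Irf8 it was Laptm5 (0.98, rho 0.83, 0.82 without), Cd53 (0.97, rho 0.91, 0.88 without) and Mpeg1 (0.97, rho 0.80, 0.82 without). Irf2 was most like Parp9 (0.93, rho 0.75, 0.70 without), Nlrc5 (0.92, rho 0.77, 0.70 without) and Sema4a (0.91, rho 0.69, 0.63 without). For Irf3 the 3 were Prpf40b (0.83, 0.84 without the pair), Mbd6 (0.82, 0.88 without) and Safb2 (0.82, 0.83 without), and for Irf4 they were Gm15821 (0.86, 0.81 without), Snhg6 (0.86, 0.85 without) and Grap2 (0.85, 0.84 without).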

How the data were processed

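RNA was measured in 17 mouse hearts, 8 Ctrl and 9 hMut, grouped by the genotype labels. The authors enriched poly(A) RNA, used fastp for filtering, HISAT2 2.2.1 for alignment to GRCm39 and featureCounts 2.0.6 for counting, and the deposited values are raw gene counts. Whether counting used the strand was not given in the sources used here.

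Counts were tested with the quasi-likelihood F test of edgeR 4.0.16 in R 4.3.3 after TMM scaling and filterByExpr, with group as the only term and Benjamini-Hochberg adjustment over 16195 genes (threshold 0.05). Standard errors (SE) were derived as the estimate over the root of its F statistic. The alternatives used DESeq2 1.42.0, limma 3.58.1, other scalings and filters, sex read from sex-linked transcripts, the replicate number as a block, and leaving out hearts. Ratios within a heart used counts plus 0.5 and an exact permutation test. Across the family, every member given is named, and of each pathway list the 3 genes with the smallest p, and for each member the 3 genes with the highest Pearson's r (log2 CPM, prior count 2), are named. Some genes that these rules would name are not reported here. The members and lists were chosen with earlier results of these data known. The steps were tested on simulated counts and differences. No library was a copy of another.

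The promoter windows were cut from the GRCm39 genome at canonical starts of GENCODE, whose release differs from that of the counts, since 60.3% of shared genes had identical coordinates. The protein sequences of the factors were not used here. The file names Rigi by its older symbol Ddx58, under which it was counted in 2 lists. Replicate numbers name different mice and pair no animals, and p-values measure the spread between mice.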

Additional observations from a re-analysis of the deposited data

Results flagged for a closer look

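In hMut replicate 6 the level stood apart from the other 8 hMut hearts, by Dixon's test at the 95% level on the log2 CPM scale, for Irf1 (75.4 CPM), Irf2 (25.2 CPM), Irf8 (56.8 CPM) and Irf9 (63.1 CPM), and for the log2 ratio of Irf1 to Irf2 (1.58). These were 5 of 20 tests, of which chance marks about 5%. The tests are not independent, since all 5 marks came from the same heart and the marked ratio is formed from Irf1 and Irf2. The factors also moved together over the hearts, as Irf1 and Irf8 did (Pearson's r = 0.88 over 17 hearts). Irf7, Irf5 and Irf4, in which replicate 6 was also the highest, did not meet this test on the log2 scale. On the linear CPM scale, a reading added after seeing the data, the gap above the next heart was 72.2%, 64.2% and 57.1% of the range for these 3, beyond the limit of 49.3%.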

How the results depend on the processing

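The finding that no factor passed the threshold held under 27 of 29 alternatives. The exceptions were DESeq2 without its replacement of outlying counts, an alternative chosen after seeing the data, and leaving out hMut replicate 2, each with 1 factor (Irf7, adjusted p = 0.0372 in the latter), so that the count ranged from 0 to 1 when single hearts were left out. The direction of Irf3, Irf5 and Irf7 was kept under all 29 alternatives. Irf1 turned to -0.00513 with limma-voom and -0.0845 without hMut replicates 6 and 9, and ranged from -0.0559 (without hMut replicate 6) to 0.380 when single hearts were left out. Irf2 turned to -0.0485 with limma-voom, -0.0760 without the pair and -0.0709 by the exact permutation of rank sums, and ranged from -0.0549 (without hMut replicate 6) to 0.0425, with -0.00264 without Ctrl replicate 7. Irf4 turned to -0.149 without the pair and -0.0844 by rank sums, and ranged from -0.139 (without hMut replicate 6) to 0.185, with -0.0641 without Ctrl replicate 6. Irf8 turned to -0.0438 and Irf9 to -0.0545 without the pair, and Irf9 to -0.0124 with limma-voom. Leaving out the high heart removes its values by construction, and the cause of the other turns was not tested.

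Hearts above every Ctrl heart were as given under every alternative for Irf8 and Irf9. With plain CPM, which the lower mitochondrial share of hMut hearts moves, they became 2 for Irf1, 4 for Irf2, 5 for Irf3, 3 for Irf5 and 5 for Irf7. Leaving out single Ctrl hearts gave 1 to 2 for Irf1, 1 to 2 for Irf4, 2 to 3 for Irf5 and 4 to 6 for Irf7, with the upper value without Ctrl replicate 3 for Irf4 and without Ctrl replicate 2 for the others. The Irf1 to Irf2 difference ranged from -0.00095 (without hMut replicate 6) to 0.193 without single hearts, and was -0.00787 without the pair. The Irf7 to Irf3 difference, judged by its p adjusted over the 2 ratios, lost its call without any single Ctrl heart (0.95 to 1.03), without the pair (0.37) and with the replicate block (0.83), and ranged from 0.617 (without hMut replicate 6) to 1.11 without single hearts. Over the lists together, 1 gene passed. It became 4 with DESeq2 with or without replacement, 3 with limma-voom, 0 with sex as a covariate, without the pair and by rank sums, and 0 to 6 when single hearts were left out (0 without Ctrl replicates 1, 2 or 3 or hMut replicates 5, 7 or 9, and 6 without hMut replicate 2). Genes called in all, 749, became 1517 with DESeq2, 1540 without its replacement, 2081 with limma-voom, 463 without a filter, 431 without the pair and 395 to 1792 without single hearts.

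With the replicate number as a replicate block, 195 genes and 0 factors were called, Irf7 changed by 0.68 (adjusted p = 0.372), and the ratio differences were 0.83 (exact sign-flip permutation p = 0.0313, adjusted p = 0.0625) for Irf7 to Irf3 and 0.16 (exact permutation p = 0.602) for Irf1 to Irf2. The numbers name different mice, 1 of 8 same-numbered pairs had a correlation of deviations above 0.1 (range -0.23 to 0.34), and 1 of 8 hMut hearts correlated best with its own number, so the block is not a pairing by design. At this depth Irf4, with as few as 29 counts in a heart, was the least precise.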
